A study of Mus musculus with 18 samples.

Results

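The ISG15 conjugation system was followed in endothelial cells (ECs) through 5 genes, the modifier Isg15, the conjugating enzymes Uba7, Ube2l6 and Herc6, and the deconjugating protease Usp18. They were picked by gene name from the 16248 genes of the expression table, and all 5 were listed and passed the filter on low values. The rule uses no measured value, but the members were chosen with earlier results of these data known. Bulk RNA sequencing (RNA-seq) covered 18 libraries of sorted ECs, 3 in each of 6 groups, from mice of the FVB strain. Normal ECs were those of the fat pad of the breast in wild-type mice. MMTV-PyMT ECs came from breast tumours of mice with the MMTV-PyMT genotype, in which a viral promoter drives an oncogene in the mammary epithelium, so the transgene is aimed at the tumour cells and not at the vessels. Implanted ECs came from breast tumours of wild-type FVB mice, which the study's methods describe as grown from cultured tumour cells of MMTV-PyMT mice placed in the fat pad. In each of the 3 tissues the injected agent was PBS (buffered saline, the control) or the STING agonist cGAMP (in its 3′3′ form, per the methods), and every group was collected 3 hours later. No age is given in the labels, and PBS and cGAMP libraries of a tissue share genotype, strain and collection time.

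ISG15 is a small protein with a fold like that of ubiquitin, and interferon is its best known inducer. It is attached to other proteins by a chain of enzymes that mirrors the ubiquitin pathway. UBA7 activates it as the E1 enzyme, UBE2L6 carries it as the E2 enzyme, and a HERC ligase transfers it to new proteins. In the mouse that ligase is mainly HERC6, which stands in for human HERC5. USP18 removes ISG15 from its targets and, apart from its protease activity, dampens signalling at the type I interferon receptor. Unattached ISG15 also leaves cells and acts on immune cells.

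Levels are FPKM (fragments counted per unit of annotated exon length, on a scale set for each library). That length, over all annotated exons of a gene, was 756 bases for Isg15, 1996 for Ube2l6, 2790 for Usp18, 6692 for Uba7 and 9292 for Herc6. Comparisons of level between genes, with their shares and ratios, depend on it and are not counts of transcripts. Whole reads recovered from these values came to between 9124935 and 12129416 per library. The scale behind the FPKM was 0.740 to 0.834 of these reads in implanted cGAMP libraries and 1.08 to 1.16 in normal ones. Levels in implanted cGAMP libraries are thus higher against normal ones than with scaling by total reads. The reads behind a single value of the 5 genes ran from 39 (Isg15 in MMTV-PyMT PBS 1) to 7707 (Usp18 in implanted cGAMP 3), and read counts cover counting error only. All 8 endothelial markers checked were listed, with summed levels from 644 to 1691 FPKM. The sort had removed cells with the leukocyte protein CD45, and 8 of 9 leukocyte markers were listed with summed levels from 17.6 to 224 FPKM. The highest of these, 224 FPKM, was in implanted cGAMP 2, against 55.0 and 46.3 FPKM in implanted cGAMP 1 and 3. Epithelial or tumour cell markers (6 of 6 listed) summed to between 245 and 905 FPKM, those of mural cells and fibroblasts (6 of 6 listed) to between 296 and 921 FPKM, and of 4 adipocyte markers 0 were listed. In MMTV-PyMT PBS libraries the epithelial sums, 838 to 905 FPKM, were above the endothelial ones, 644 to 795 FPKM. The same held in MMTV-PyMT cGAMP 1 (819 against 730 FPKM). In every other library the endothelial sum was the higher. Such sums are of different genes and are not shares of cells, but these libraries cannot be taken as purely endothelial. Of the listed markers 0 were called by limma in a comparison of cGAMP with PBS in any tissue, and between 0 and 2 of each of these 4 lists passed an unadjusted p of 0.05. In bulk libraries, fewer cells of a type and less RNA per cell cannot be told apart.

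The members lie apart in the genome, at positions given for GRCm38 (GENCODE M21) and counted from 1. Isg15 (ENSMUSG00000035692.6) spans chr4:156199424-156200818 on the minus strand. The others are on the plus strand, with Uba7 (ENSMUSG00000032596.14) at chr9:107975505-107984060, Ube2l6 (ENSMUSG00000027078.14) at chr2:84798828-84810335, Herc6 (ENSMUSG00000029798.11) at chr6:57581000-57664632 and Usp18 (ENSMUSG00000030107.10) at chr6:121245906-121270917. All 5 are protein-coding. The annotation places Gm20661 on the strand of Uba7 and Gm45193 on that of Herc6, and antisense genes within Herc6 (Gm19244) and Usp18 (Gm44148). No source used here says if strand entered the counting, so reads of such partners cannot be told apart from those of these 3 members, whose values are uncertain to that extent.

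The interferon-stimulated response element, a DNA word bound by IRF proteins, was searched as GAAA, any 2 bases and GAAA again, and its IRF part as AANNGAAA, which lies within the longer word. Both strands of the 250 bases before the transcription start were read in RefSeq windows of GRCm38.p6, which held 4 of the 5 members (not Usp18). The start that RefSeq gives Uba7 lies 62 bases inside the gene as GENCODE places it, so the end of that window, with its match, is within the gene above, and the RefSeq start of Herc6 lies 8 bases before the gene. The promoters of Isg15 and Uba7 are shown because these 2 genes had the largest and the smallest changes among the 4. Capitals mark matches to either word, and both sequences run 5′ to 3′ in the direction of transcription.
Isg15 (chr4:156200819-156201068, minus strand): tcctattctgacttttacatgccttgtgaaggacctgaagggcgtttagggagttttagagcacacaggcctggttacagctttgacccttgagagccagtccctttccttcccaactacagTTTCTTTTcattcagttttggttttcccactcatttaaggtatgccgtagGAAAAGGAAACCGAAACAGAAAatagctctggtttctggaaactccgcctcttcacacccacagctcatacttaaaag
Uba7 (chr9:107975317-107975566, plus strand): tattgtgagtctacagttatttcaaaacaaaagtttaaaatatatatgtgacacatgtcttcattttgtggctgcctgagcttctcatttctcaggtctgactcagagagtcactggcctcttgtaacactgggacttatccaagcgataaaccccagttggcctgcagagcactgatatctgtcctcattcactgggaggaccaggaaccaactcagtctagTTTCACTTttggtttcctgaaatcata
Isg15 held the longer word at 3 overlapping places, from 78 to 57 bases before its start, and a further match to the shorter word on the opposite strand at 128 to 121 bases. Uba7 held no longer word and a single shorter one, on the opposite strand at 27 to 20 bases. Neither word occurred in the windows of Ube2l6 (chr2:84798578-84798827) and Herc6 (chr6:57580742-57580991). Of all 32851 windows of this length, 2.98% held the longer word and 21.3% the shorter one. A match describes these letters only, and their absence from a window says nothing of sites elsewhere.

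Transcripts of the whole system were higher after cGAMP than after PBS in every tissue, but by very unequal amounts, from 1.47-fold for Uba7 in normal ECs to 46.6-fold for Isg15 in MMTV-PyMT ECs. A gene was called when its adjusted p-value (limma, Benjamini-Hochberg over 13983 tested genes) was under 0.05 and its log2 change of FPKM + 1 at least 1. By this rule 4 of 5 members were called higher in normal ECs, where 3.02% of all tested genes were, and all 5 passed the adjusted p there, against 13.7% of tested genes in this direction. In MMTV-PyMT ECs all 5 were called higher, against 2.49% of tested genes, and in implanted ECs all 5, against 6.13%. All 3 cGAMP libraries lay above all 3 PBS libraries for 5 of 5 members in each tissue, an order found for 20.9% of tested genes in normal, 14.8% in MMTV-PyMT ECs and 22.4% in ECs of implanted tumours. In the order normal, MMTV-PyMT and implanted, the members had a median log2 change of 1.91, 2.73 and 3.08, beside medians of -0.04, -0.04 and -0.01 over all tested genes. The members' medians were the values of Herc6, Ube2l6 and Herc6, so they set different members side by side. Taken member by member, the response in implanted minus MMTV-PyMT ECs had a median of -0.20, beside 0.02 over all tested genes. The 3 comparisons of cGAMP with PBS have separate control libraries. Leaving out any 1 of the 18 libraries, implanted cGAMP 2 included, left the counts at 4, 5 and 5.

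**Figure D1:**
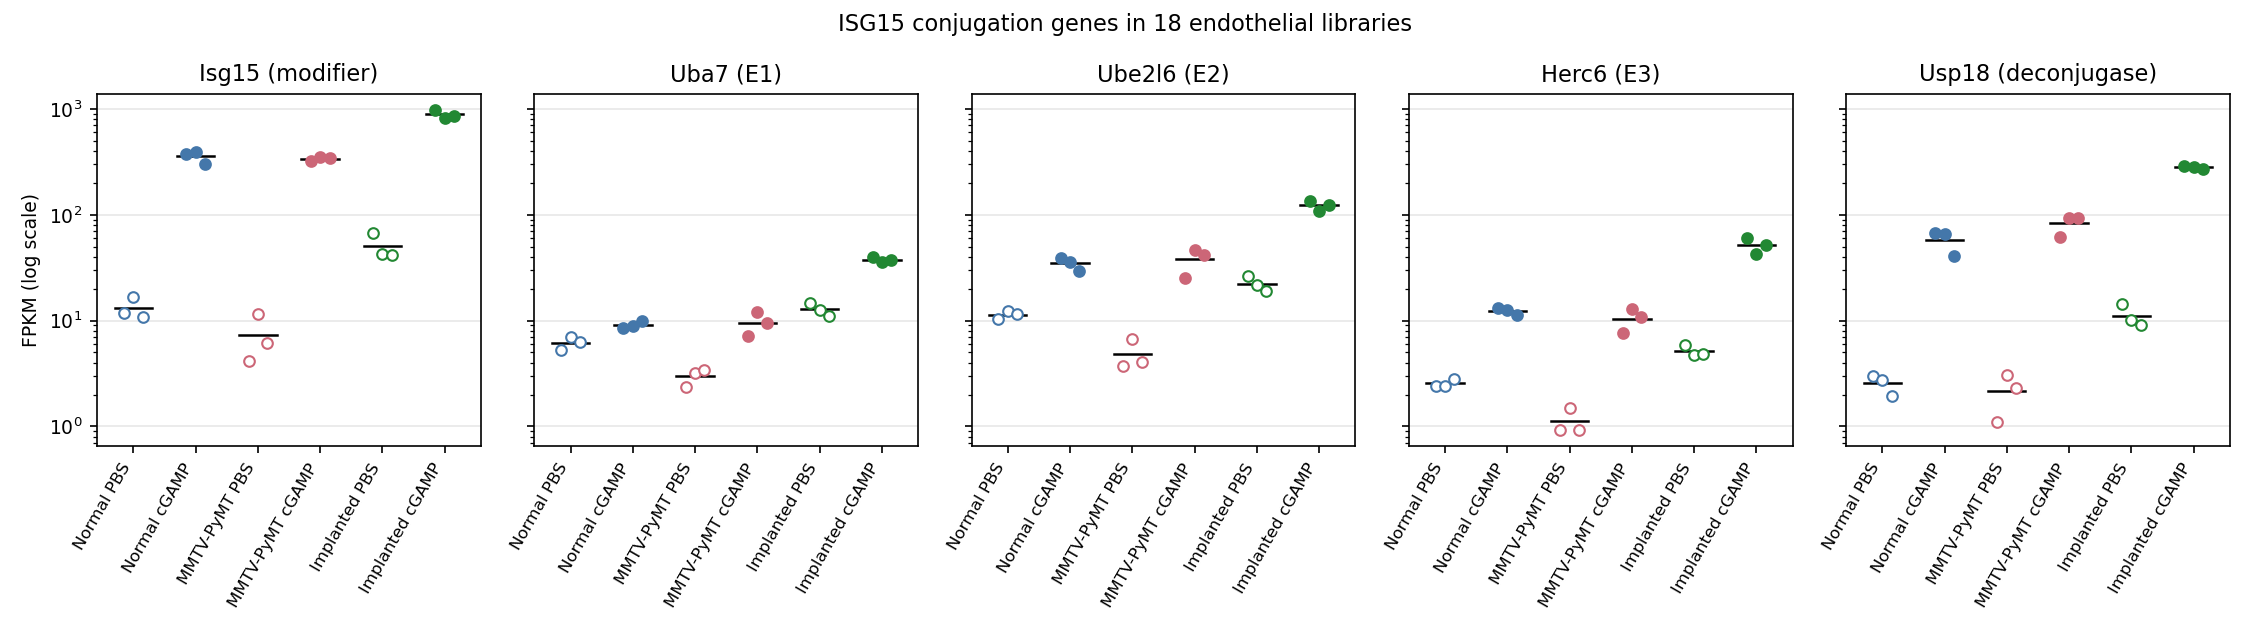
FPKM of the 5 genes on a log axis, with 1 panel per gene and 6 groups along each horizontal axis. Points are single libraries (3 per group, open for PBS and filled for cGAMP) and bars are group means. In each tissue all filled points lie above the open ones, and the implanted cGAMP group is the highest of the 6 in every panel.

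The modifier itself, Isg15, had the highest FPKM of the 5 in every cGAMP library. In normal ECs it stood at 11.8, 16.7 and 10.8 FPKM under PBS and at 379, 388 and 301 FPKM under cGAMP. In MMTV-PyMT ECs it stood at 4.18, 11.5 and 6.16 FPKM under PBS and at 320, 355 and 344 FPKM under cGAMP. In implanted ECs it stood at 66.5, 42.6 and 41.7 FPKM under PBS and at 988, 817 and 862 FPKM under cGAMP. The groups did not overlap within a tissue, and the cGAMP libraries were closer to each other than the PBS ones, most of all in MMTV-PyMT ECs (coefficient of variation 5.23% against 52.3%). On the log2 scale Isg15 rose by 4.68 in normal (SE 0.25, adjusted p = 2.53e-09), 5.46 in MMTV-PyMT ECs (adjusted p = 2.11e-10) and 4.15 in ECs of implanted tumours (adjusted p = 3.23e-09), which made it the gene with rank 8, 10 and 21 of 13983 by size of rise. In FPKM the group mean was 27.2-fold, 46.6-fold and 17.7-fold higher.

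Uba7, the activating enzyme at the top of the chain, changed least. Under PBS it stood at 5.30, 7.03 and 6.27 FPKM in normal ECs, and under cGAMP at 8.45, 8.97 and 9.98 FPKM. In MMTV-PyMT ECs the PBS libraries held 2.34, 3.23 and 3.43 FPKM and the cGAMP libraries 7.09, 11.96 and 9.46 FPKM. In implanted ECs the PBS libraries held 14.8, 12.6 and 11.04 FPKM and the cGAMP libraries 39.7, 35.7 and 37.6 FPKM. No groups overlapped within a tissue, yet in normal ECs the gap between the highest PBS and the lowest cGAMP library was narrow. There the log2 change was 0.50 (SE 0.16, adjusted p = 0.0227), 1.47-fold in FPKM, under the size required for a call. Without normal PBS 1, normal PBS 3 or normal cGAMP 3 its adjusted p was 0.0958, 0.0536 and 0.0810, the range over 27 alternatives being 0.0100 to 0.0958. Uba7 rose by 1.38 in MMTV-PyMT ECs (adjusted p = 1.03e-05) and by 1.49 in ECs of implanted tumours (adjusted p = 1.36e-06), or 3.17-fold and 2.94-fold in FPKM.

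Ube2l6, the E2 carrier, had the highest FPKM among the enzymes of the chain. Normal ECs held 10.3, 12.4 and 11.5 FPKM under PBS and 38.7, 36.2 and 29.7 FPKM under cGAMP. MMTV-PyMT ECs held 3.70, 6.70 and 4.06 FPKM under PBS and 25.5, 46.0 and 42.0 FPKM under cGAMP. Implanted ECs held 26.5, 21.6 and 19.1 FPKM under PBS and 135, 108 and 124 FPKM under cGAMP. PBS and cGAMP libraries were apart in all 3 tissues, with MMTV-PyMT cGAMP 1 the lowest of its group. The log2 change was 1.53 in normal (SE 0.21, adjusted p = 5.60e-05), 2.73 in MMTV-PyMT ECs (adjusted p = 8.45e-08) and 2.41 in ECs of implanted tumours (adjusted p = 1.46e-07). These are 3.06-fold, 7.85-fold and 5.48-fold in FPKM.

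Herc6, the ligase, had the lowest mean FPKM of the system in every PBS group, though in the normal one it was level with Usp18 (2.54 and 2.55 FPKM). Normal ECs held 2.43, 2.41 and 2.78 FPKM under PBS and 13.2, 12.5 and 11.2 FPKM under cGAMP. MMTV-PyMT ECs held 0.932, 1.499 and 0.923 FPKM under PBS and 7.59, 12.8 and 10.8 FPKM under cGAMP. Implanted ECs held 5.90, 4.72 and 4.87 FPKM under PBS and 59.99, 42.2 and 51.8 FPKM under cGAMP. The groups were apart in each tissue, and Herc6 passed Uba7 in level in all cGAMP groups. It rose by 1.91 on the log2 scale in normal (SE 0.16, adjusted p = 4.21e-07), 2.41 in MMTV-PyMT ECs (adjusted p = 1.98e-08) and 3.08 in ECs of implanted tumours (adjusted p = 6.85e-10). The rises were 4.84-fold, 9.32-fold and 9.95-fold in FPKM.

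Usp18, the deconjugating protease, rose on the scale of Isg15. Normal ECs held 2.97, 2.75 and 1.92 FPKM under PBS and 67.1, 65.5 and 41.2 FPKM under cGAMP. MMTV-PyMT ECs held 1.11, 3.08 and 2.29 FPKM under PBS and 61.2, 93.3 and 93.7 FPKM under cGAMP. Implanted ECs held 14.3, 10.1 and 9.07 FPKM under PBS and 288, 281 and 273 FPKM under cGAMP. No PBS library came near a cGAMP library of its tissue, and the 3 implanted cGAMP libraries varied least of all (coefficient of variation 2.67%). The log2 change was 4.03 in normal (SE 0.24, adjusted p = 8.86e-09), 4.75 in MMTV-PyMT ECs (adjusted p = 6.14e-10) and 4.56 in ECs of implanted tumours (adjusted p = 7.50e-10), at rank 14, 20 and 16 of 13983. In FPKM the rise was 22.7-fold, 38.4-fold and 25.2-fold.

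**Figure D2:**
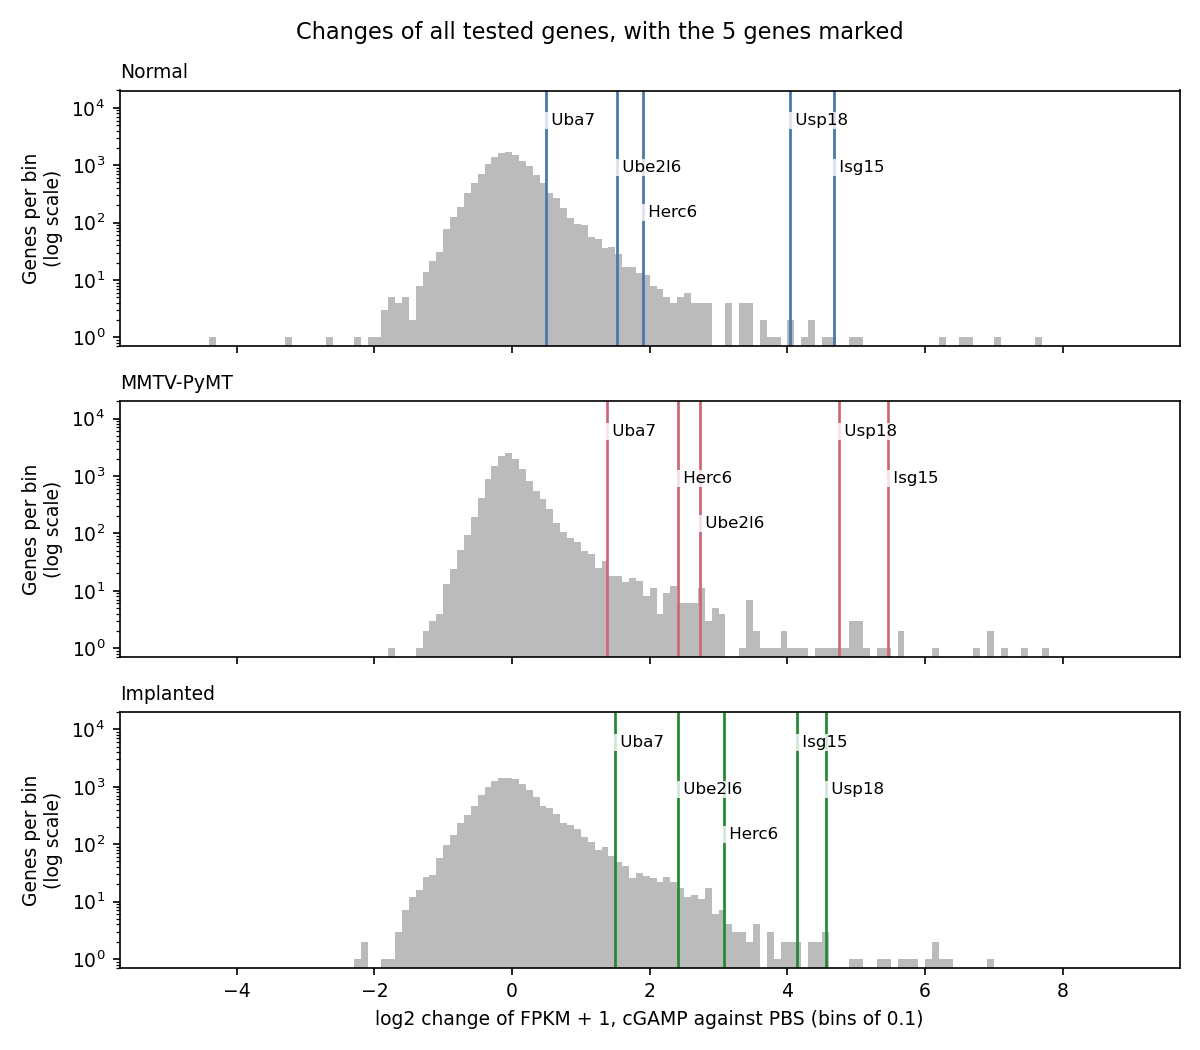
Number of tested genes (log axis, bins of 0.1) by log2 change of FPKM + 1 after cGAMP, 1 panel per tissue, with vertical lines at the 5 genes. Isg15 and Usp18 lie in the sparse right end of each panel, at 4.03 or more, while Uba7 lies on the flank of the main body in normal ECs at 0.50.

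Because the members moved unequally, the make-up of the system shifted. Normal ECs held 35.8 ± 4.78 FPKM of the 5 transcripts together under PBS and 470 ± 66.7 under cGAMP (SD, n = 3). MMTV-PyMT ECs held 18.4 ± 7.02 and 480 ± 51.6 FPKM, and implanted ECs 102 ± 22.9 and 1381 ± 116 FPKM. The share of Isg15 in that sum went from 36.3% ± 3.99 to 75.8% ± 0.901 in normal, from 38.3% ± 5.35 to 71.1% ± 4.25 in MMTV-PyMT and from 49.0% ± 2.75 to 64.3% ± 0.949 in implanted ECs. The share of Uba7 went from 17.4% to 1.99% in normal, from 17.3% to 1.96% in MMTV-PyMT and from 12.7% to 2.73% in implanted ECs. Ube2l6 went from 32.0% to 7.43%, from 26.7% to 7.77% and from 22.2% to 8.87% in the same order of tissues, while the share of Usp18 went from 7.17% to 12.2%, from 11.5% to 17.1% and from 10.9% to 20.4%. The ranges of the 3 libraries under PBS and under cGAMP did not overlap for any of these shares. No test was run on shares, which restate the levels given above.

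**Figure D3:**
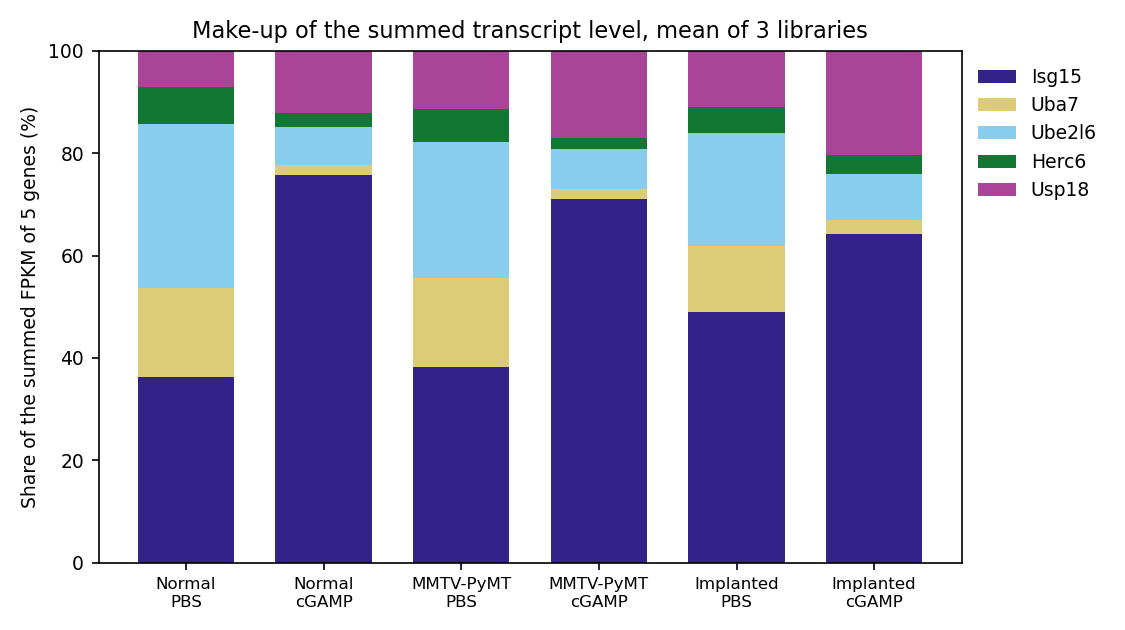
Mean share of each of the 5 genes in their summed FPKM (vertical axis, percent), as 1 stacked bar per group of 3 libraries. The Isg15 segment takes 36.3% to 49.0% of the PBS bars and 64.3% to 75.8% of the cGAMP bars, and the Uba7 segment shrinks to under 3% in each cGAMP bar.

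Ratios between members within a library showed the same shift pair by pair. The ratio of Isg15 to Uba7 in FPKM was 2.10 ± 0.345 in normal ECs under PBS and 39.4 ± 8.05 under cGAMP (SD, n = 3). The ratio went from 2.39 ± 1.03 to 37.1 ± 7.79 in MMTV-PyMT and from 3.88 ± 0.565 to 23.6 ± 1.13 in implanted ECs. Herc6 per Uba7 went from 0.415 to 1.36 in normal, from 0.377 to 1.10 in MMTV-PyMT and from 0.404 to 1.36 in implanted ECs. Isg15 per Usp18 moved little, from 5.21 ± 1.10 to 6.30 ± 0.893 in normal and from 3.41 ± 0.618 to 4.24 ± 0.865 in MMTV-PyMT ECs, with overlapping ranges, and went from 4.49 ± 0.248 to 3.165 ± 0.262 in implanted ECs, where the ranges were apart. Thus the modifier and its protease kept to a ratio of 3.165 to 6.30 in the group means, whereas the modifier outgrew its activating enzyme in each tissue.

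The difference of the cGAMP effect between tissues was tested for each member as an interaction in the same limma model. Comparisons that involve the same tissue share that tissue's libraries. Of the 6 mural cell and fibroblast markers, 1 was called higher in implanted minus normal and 1 in implanted minus MMTV-PyMT ECs. No other listed marker was called in these differences, and the part of the markers was not tested. In MMTV-PyMT minus normal ECs, 1 of 5 members was called (1.28% of tested genes were called higher) and 2 passed the adjusted p (5.48% did so in this direction). Ube2l6 responded more strongly in MMTV-PyMT ECs by 1.203 on the log2 scale (95% CI 0.58 to 1.82, adjusted p = 0.0195), and Uba7 by 0.88 (0.41 to 1.35, adjusted p = 0.0221). For Isg15, Usp18 and Herc6 the differences were 0.78 (0.02 to 1.53), 0.72 (-0.00 to 1.45) and 0.51 (0.02 to 0.99), with adjusted p of 0.191, 0.210 and 0.186. The Ube2l6 call was lost without normal PBS 2 (1.14), MMTV-PyMT PBS 3 (1.12), MMTV-PyMT cGAMP 2 (1.04) or MMTV-PyMT cGAMP 3 (1.11), at adjusted p from 0.0513 to 0.0568, within a range of 0.00299 to 0.0568 over 27 alternatives. Uba7 no longer passed without normal PBS 2 (0.80), normal PBS 3 (0.87), MMTV-PyMT PBS 1 (0.76), MMTV-PyMT cGAMP 2 (0.72) or MMTV-PyMT cGAMP 3 (0.87) and was called without MMTV-PyMT cGAMP 1 (1.06). Isg15 was called without MMTV-PyMT PBS 2 (1.13).

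In implanted minus normal ECs, 1 of 5 members was called higher (3.75% of tested genes) and 3 passed the adjusted p (12.5%). Herc6 responded more strongly in implanted ECs by 1.17 (95% CI 0.69 to 1.66, adjusted p = 0.00218), Uba7 by 0.995 (0.53 to 1.46, adjusted p = 0.00487) and Ube2l6 by 0.88 (0.26 to 1.501, adjusted p = 0.0460). The value for Ube2l6 passed in 10 of 27 alternatives and that for Uba7 in 26. Herc6 passed in all 27, though at 0.83 when scaled by total reads and 0.67 after quantile normalization it was under 2-fold. Usp18 differed by 0.52 (-0.20 to 1.25, adjusted p = 0.312) and Isg15 by -0.53 (-1.29 to 0.22, adjusted p = 0.325). Under quantile normalization the Isg15 difference was -1.31 and called. Uba7 crossed the call limit without normal PBS 1 (1.09), normal cGAMP 3 (1.05), implanted PBS 1 (1.10) or implanted cGAMP 2 (1.03), and Ube2l6 without implanted PBS 1 (1.01), so that count ranged from 1 to 3 when single libraries were left out.

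Between the 2 kinds of tumour, Isg15 was the member that differed, with a lower response in implanted than in MMTV-PyMT ECs (log2 difference of -1.31, 95% CI -2.07 to -0.56, adjusted p = 0.0249, 0.629% of tested genes called lower). It started from 50.3 ± 14.1 FPKM under PBS in implanted ECs and from 7.30 ± 3.81 FPKM in MMTV-PyMT ECs (SD, n = 3), and it reached 889 ± 88.3 and 340 ± 17.8 FPKM. This call was lost without implanted PBS 1 (-1.10), MMTV-PyMT PBS 1 (-1.02), MMTV-PyMT PBS 3 (-1.25), MMTV-PyMT cGAMP 2 (-1.28) or MMTV-PyMT cGAMP 3 (-1.30), and in a fit of these 4 groups alone (adjusted p = 0.0510), its adjusted p over 27 alternatives being 0.00237 to 0.0637. The other members differed by 0.66 for Herc6 (0.18 to 1.15), -0.32 for Ube2l6 (-0.94 to 0.30), -0.20 for Usp18 (-0.92 to 0.53) and 0.12 for Uba7 (-0.35 to 0.58), with adjusted p of 0.0761, 0.550, 0.781 and 0.803. The Herc6 difference ran from 0.064 to 0.82 over 27 alternatives and passed the adjusted p in 2 of them.

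**Figure D4:**
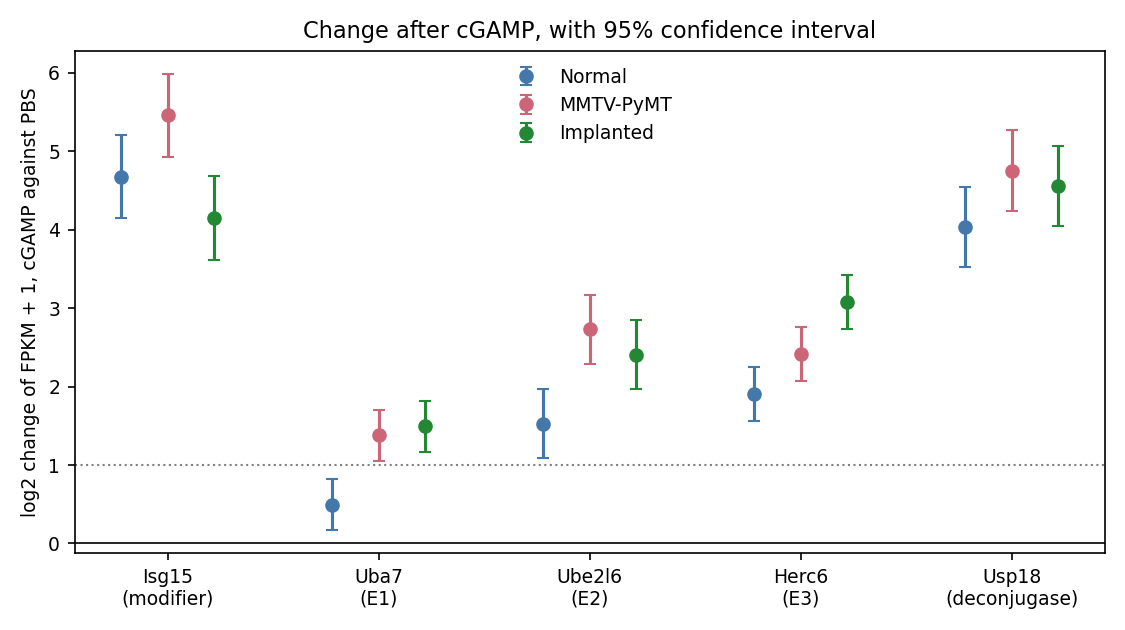
Log2 change of FPKM + 1 after cGAMP (vertical axis) for the 5 genes in 3 tissues. Points are model estimates from 3 libraries against 3, bars are 95% confidence intervals, and the dotted line marks the 2-fold limit of a call. Isg15 and Usp18 lie between 4.03 and 5.46, the enzymes between 0.50 and 3.08, and Uba7 in normal ECs is the single point under the line.

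Without cGAMP the system stood highest in implanted ECs and, for most members, lowest in MMTV-PyMT ECs. Compared with MMTV-PyMT ECs, all 5 members were called higher in implanted ECs under PBS (4.28% of tested genes). The log2 differences were 2.69 for Isg15 (SE 0.25, adjusted p = 9.35e-07), 2.03 for Ube2l6 (SE 0.21, adjusted p = 2.03e-06), 1.97 for Usp18 (SE 0.24, adjusted p = 1.15e-05), 1.79 for Uba7 (SE 0.16, adjusted p = 4.64e-07) and 1.55 for Herc6 (SE 0.16, adjusted p = 2.70e-06). Group means were from 4.27-fold (Uba7) to 6.89-fold (Isg15) apart, and no PBS library of an implanted tumour overlapped one of an MMTV-PyMT tumour. The share of tested genes apart in this way was not counted. In the same comparison 4 of 6 epithelial or tumour cell markers were called lower in implanted ECs, with summed levels of 345 to 494 FPKM against 838 to 905 FPKM. Of the mural cell and fibroblast markers 1 was called higher and 1 lower, and 1 endothelial marker was called higher. Their part in the result was not tested.

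Against normal ECs, all 5 members passed the adjusted p in implanted ECs under PBS (25% of tested genes did so in this direction) and 2 were called higher (5.74%). Isg15 was higher by 1.85 (SE 0.25, adjusted p = 1.73e-05) and Usp18 by 1.77 (SE 0.24, adjusted p = 1.91e-05), or 3.84-fold and 4.38-fold in FPKM. Uba7, Ube2l6 and Herc6 were higher by 0.94, 0.91 and 0.79, close to the limit of a call, with adjusted p of 0.000117, 0.00177 and 0.000725. Uba7 crossed that limit without normal PBS 2 (1.02), and both Uba7 (1.03) and Ube2l6 (1.01) did so without implanted PBS 3, which took the count to 4. In this comparison 4 of 6 mural cell and fibroblast markers were called lower and 1 higher, with summed levels of 383 to 393 FPKM in implanted against 811 to 921 FPKM in normal ECs. Of the other markers, 2 of 8 leukocyte and 1 of 8 endothelial ones were called lower, and of 6 epithelial or tumour cell ones 1 was called higher and 1 lower. The part of these markers in the result was not tested. In MMTV-PyMT against normal ECs under PBS, 4 members passed in the lower direction (26.6% of tested genes) and 1 was called (7.67%). Ube2l6 was lower by 1.12 (change of -1.12, SE 0.21, adjusted p = 0.000257), and the changes of Uba7, Isg15 and Herc6 were -0.85, -0.84 and -0.75, with adjusted p of 0.000236, 0.00966 and 0.000966. The added 1 FPKM shrinks changes of such low genes. In FPKM the group means were 0.423 (Ube2l6), 0.484 (Uba7), 0.558 (Isg15) and 0.440 (Herc6) of the normal ones. Uba7 and Herc6 were called with a pseudocount of 0.1 (-1.03 and -1.15) and by voom (-1.06 and -1.24). Isg15 overlapped between these groups through MMTV-PyMT PBS 2, and without normal PBS 2 (-0.66) or MMTV-PyMT PBS 1 (-0.55) it no longer passed, while without MMTV-PyMT PBS 2 it was called (-1.19). Ube2l6 fell just under the limit without MMTV-PyMT PBS 1 (-0.99). Usp18 changed by -0.21 (95% CI -0.72 to 0.30, adjusted p = 0.484). Here 4 of 6 epithelial or tumour cell markers were called higher and 4 of 8 leukocyte markers lower in MMTV-PyMT ECs. Of the mural cell and fibroblast markers 3 of 6 were called lower and 1 higher (summed levels of 296 to 348 against 811 to 921 FPKM), and 1 of 8 endothelial markers was called lower. Their part in the result was not tested.

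After cGAMP, the members differed little between normal and MMTV-PyMT ECs, and their libraries overlapped for each member. Of 5 members 0 were called and 0 passed the adjusted p in limma, by voom on recovered reads 0 were called, and 1 (Usp18) passed an unadjusted p of 0.05. The differences of MMTV-PyMT from normal ECs were -0.06 for Isg15 (95% CI -0.59 to 0.47), 0.03 for Uba7 (-0.30 to 0.36), 0.08 for Ube2l6 (-0.36 to 0.52), -0.24 for Herc6 (-0.59 to 0.10) and 0.51 for Usp18 (0.00 to 1.03). In this comparison 5.05% of tested genes were called higher and 5.38% lower, and 28.7% and 22.1% passed the adjusted p in these directions. Usp18 passed the adjusted p by voom (0.52, adjusted p = 0.0351) and without MMTV-PyMT cGAMP 1 (0.71, adjusted p = 0.0332), its adjusted p over 27 alternatives being 0.0332 to 0.368. Herc6 passed when scaled by total reads (-0.39, adjusted p = 0.0422) and after quantile normalization (-0.38, adjusted p = 0.0451), with 0.0422 to 0.801 over 27 alternatives. Leukocyte markers (3 of 8) and mural cell and fibroblast markers (3 of 6) were called lower, and 3 of 6 epithelial or tumour cell markers and 1 mural marker higher, in MMTV-PyMT ECs, and their part was not tested. The direction of the Isg15, Uba7 and Ube2l6 differences turned with single libraries or with another scaling, so it is not given as a result.

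Implanted ECs stayed above both under cGAMP. All 5 members were called higher than in normal ECs (9.03% of tested genes), by 1.32 for Isg15, 1.79 for Ube2l6, 1.93 for Uba7, 1.97 for Herc6 and 2.29 for Usp18, with adjusted p from 4.07e-08 to 0.000316. All 5 were also called higher than in MMTV-PyMT ECs (7.02%), by 1.38 for Isg15, 1.71 for Ube2l6, 1.78 for Usp18, 1.91 for Uba7 and 2.21 for Herc6, with adjusted p from 4.56e-08 to 0.000295. No libraries overlapped in either comparison, but the share of tested genes apart in this way was not counted between tissues. Isg15 had the smallest difference in both and depended on the scaling, since against normal ECs it was 0.83 when scaled by total reads and 0.47 after quantile normalization (adjusted p = 0.128, within 1.08e-06 to 0.128 over 27 alternatives). Against MMTV-PyMT ECs it was 0.75 after quantile normalization (adjusted p = 0.0212, within 1.19e-06 to 0.0212 over 27 alternatives), under the size of a call. Markers of other cells moved with both comparisons. Against normal ECs, 2 of 8 leukocyte markers were called higher and 1 lower, 1 of 6 mural cell and fibroblast markers higher and 2 lower, and 1 of 6 epithelial or tumour cell and 1 of 8 endothelial markers lower. Against MMTV-PyMT ECs, 2 of 6 epithelial or tumour cell markers were called lower and 1 mural marker higher, and for leukocyte markers 7 of 8 were called higher, with sums of 46.3 to 224 FPKM against 19.7 to 22.7 FPKM. Their part in the results was not tested. In implanted cGAMP 2, the library with 224 FPKM of leukocyte markers, Isg15, Uba7, Ube2l6 and Herc6 were the lowest of the 3 implanted cGAMP libraries and Usp18 was between the others. Without that library all 5 members were still called in both comparisons.

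Ordered by mean level, implanted cGAMP came first for all 5 members and MMTV-PyMT PBS last. For Isg15, Usp18, Ube2l6 and Herc6 the 2 other cGAMP groups followed, then implanted PBS, then normal PBS. Uba7 departed from this order, with implanted PBS (12.8 ± 1.89 FPKM, SD, n = 3) in second place above MMTV-PyMT cGAMP (9.51 ± 2.44 FPKM) and normal cGAMP (9.13 ± 0.778 FPKM). Adjacent groups overlapped between MMTV-PyMT cGAMP and normal cGAMP for each member, between implanted PBS and MMTV-PyMT cGAMP for Uba7, and between normal PBS and MMTV-PyMT PBS for Isg15 and Usp18. All other neighbours in the order were apart in their libraries, and between tissues the share of tested genes so apart was not counted.

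The genes whose pattern over the 18 libraries came closest to each member were ranked by the root mean square difference of log2(FPKM + 1), after the mean of each gene was taken away. Small values mean alike profiles, and the ranking is a description of libraries that share treatment and depth. Within the system, Ube2l6 and Herc6 were closest to each other (0.261), then Isg15 and Usp18 (0.430), whereas Isg15 and Uba7 were farthest apart (1.87). The profiles thus fell into a steep pair and a moderate pair, with Uba7 flatter and nearest to Ube2l6 (0.584).

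Outside the system, Isg15 was closest to Ifit3b, an interferon-induced gene with near-identical relatives and so of uncertain level (0.444), to Cd274, which encodes the checkpoint ligand PD-L1 (0.504), and to the chemokine gene Ccl5 (0.543), beside a median of 2.60 over all tested genes. Usp18 was closest to the interferon-inducible gene Ifi202b (0.414), Ccl5 (0.552) and Ifit3b (0.575). Uba7 lay nearest to Tap2, a subunit of the transporter that feeds peptides to MHC class I (0.194), and to Psmb10, a subunit of the immunoproteasome (0.195), followed by 9530082P21Rik (0.239). In normal ECs these neighbours of Uba7 changed by 0.53 for Tap2 (adjusted p = 0.00329), 0.19 for Psmb10 (adjusted p = 0.273) and 0.04 for 9530082P21Rik (adjusted p = 0.876), and in implanted ECs they rose by 1.72, 1.66 and 1.53. Ube2l6 was nearest to Pml, the organizer of PML nuclear bodies (0.240), the helicase gene Helz2 (0.261) and the ubiquitin ligase gene Dtx3l (0.284). Pml (0.202) also came first for Herc6, followed by the helicase gene Ddx60 (0.232) and Helz2 (0.277). The medians over all tested genes were 2.46 for Usp18, 1.07 for Uba7, 1.46 for Ube2l6 and 1.55 for Herc6. The measure grows with the size of a gene's changes. Distances of different members are thus not to be set against each other.

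The nearest tested genes on each side of the members were examined for changes around the loci. Of 10 such neighbours, 3 were called in at least 1 tissue. The share of all tested genes called in at least 1 tissue was not counted, so this count is not given as a result about the loci. In single tissues 3.02% (normal), 2.49% (MMTV-PyMT) and 6.13% (implanted) of tested genes were called higher. AW011738 (chr4:156203304-156205151, plus strand), 2.49 kb from Isg15, had mean levels under PBS and cGAMP of 4.45 and 7.41 FPKM in normal, 1.68 and 9.998 FPKM in MMTV-PyMT, and 3.49 and 13.9 FPKM in implanted ECs. Its log2 changes were 0.63 (adjusted p = 0.000793), 2.04 (adjusted p = 2.72e-09) and 1.72 (adjusted p = 1.10e-08). Agrn, 1.94 kb away on the other side of Isg15, was not called, at -0.01, 0.28 and 0.20. Ppm1k (chr6:57506502-57535468, minus strand), a mitochondrial phosphatase gene 45.5 kb from Herc6, rose by 0.78 in normal (adjusted p = 0.00262), 1.94 in MMTV-PyMT ECs (adjusted p = 4.98e-07) and 3.13 in ECs of implanted tumours (adjusted p = 8.81e-10). Tuba8, a tubulin gene 19.1 kb from Usp18, was called in implanted ECs (0.144 to 4.21 FPKM, log2 change 2.10, adjusted p = 1.22e-06), with 0.34 in normal (adjusted p = 0.244) and 0.36 in MMTV-PyMT ECs (adjusted p = 0.307). Neither neighbour of Uba7 (Mon1a and Inka1) or of Ube2l6 (Serping1 and Timm10) was called in any tissue, nor were M6pr and Pyurf.

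Related genes were then read as 5 lists. Of 7 tested genes for other ISG15 ligases and ISG15-reactive proteases, 1 was called higher in each tissue. This was Trim25, a RING ligase that modifies RIG-I and can also attach ISG15, with mean levels under PBS and cGAMP of 23.9 and 70.9 FPKM in normal, 22.2 and 60.1 FPKM in MMTV-PyMT, and 31.7 and 87.2 FPKM in implanted ECs. Its log2 changes of 1.53, 1.40 and 1.43 had adjusted p of 8.70e-10, 1.38e-09 and 7.40e-10, and after quantile normalization the list had 0 calls in implanted ECs. Arih1, another ligase linked to ISG15, was at -0.02, 0.02 and 0.19, and Usp5, a deubiquitinase that also reacts with ISG15, at -0.05, -0.09 and -0.06. The list's median change was -0.02 in normal, 0.02 in MMTV-PyMT ECs and 0.06 in ECs of implanted tumours.

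The enzymes that do the same work for ubiquitin and its other relatives mostly stayed near the middle of all genes. Of 12 tested, 0 were called in normal and MMTV-PyMT ECs by limma and by voom, with 7 and 2 at an unadjusted p under 0.05, and 1 was called in implanted ECs, where 9 were at an unadjusted p under 0.05. The called gene was Herc3, a relative of Herc6, which went from 1.48 to 4.63 FPKM in implanted ECs (log2 change 1.19, adjusted p = 7.96e-07). When scaled by total reads or with a filter at a mean of 5 FPKM the list had 0 calls there. Herc3 changed by 0.47 in normal (adjusted p = 0.00627) and by -0.05 in MMTV-PyMT ECs. Uba1, the main ubiquitin-activating enzyme, was at -0.12, 0.03 and 0.51, and Sae1, part of the SUMO-activating enzyme, at -0.54, -0.24 and -0.28. The list's medians were -0.18, -0.03 and 0.14.

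Among 13 tested genes for other ubiquitin-like modifiers, 0 were called in any tissue by limma or voom, with 5, 3 and 4 at an unadjusted p under 0.05. Fau was at -0.04, -0.02 and 0.13, and Rps27a, which encodes ubiquitin fused to a ribosomal protein, at 0.01, -0.25 and -0.01. Their medians were -0.01 in normal, -0.12 in MMTV-PyMT ECs and 0.08 in ECs of implanted tumours.

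Proteins known to carry ISG15 were split. In each tissue 9 of 21 genes were called higher and 0 lower, beside 3.02%, 2.49% and 6.13% of tested genes called higher. The list's medians were 0.66, 0.29 and 0.79, beside -0.04, -0.04 and -0.01 over all tested genes. Strong rises were those of Rsad2, the antiviral radical enzyme viperin (6.64 in normal, 7.49 in MMTV-PyMT ECs and 6.96 in ECs of implanted tumours), of Ifit1, which binds viral RNA (6.58, 7.16 and 5.32), and of Ifit3 (5.09, 6.71 and 5.76). The GTPase gene Mx1 rose by 4.04, 4.91 and 5.69, the RNA sensor gene Ifih1 by 3.63, 3.83 and 4.34, and Pml by 1.64, 2.41 and 2.80. Among the carriers never called was the kinase gene Jak1 (0.29, 0.20 and 0.79).

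Of 10 tested genes for interferon receptor signalling and for factors that act on interferon-response promoters, 5 were called higher in normal, 5 in MMTV-PyMT ECs and 4 in ECs of implanted tumours, and 0 lower. The shares of tested genes called higher were 3.02%, 2.49% and 6.13% in that order. Transcription factor genes that rose in each tissue did so by 2.39, 2.25 and 2.09 for Irf7, 2.04, 2.80 and 2.25 for Stat2, 1.98, 2.53 and 1.53 for Irf1, and 1.496, 1.44 and 0.76 for Irf9, whose last value passed the adjusted p but was under 2-fold. Irf3, which STING signalling activates at the protein level, changed by -0.55 in normal ECs (adjusted p = 0.00663), with values of 0.15 and -0.29 in MMTV-PyMT and implanted ECs (adjusted p = 0.514 and 0.104). Ifnar2, the receptor chain at which USP18 acts, rose by 0.40 in MMTV-PyMT ECs (adjusted p = 0.00384) and by 0.34 in implanted ECs (adjusted p = 0.00378), with 0.10 in normal ECs (adjusted p = 0.390). Irf3 and Jak1 are among the genes that belong to both of the last lists.

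**Figure D5:**
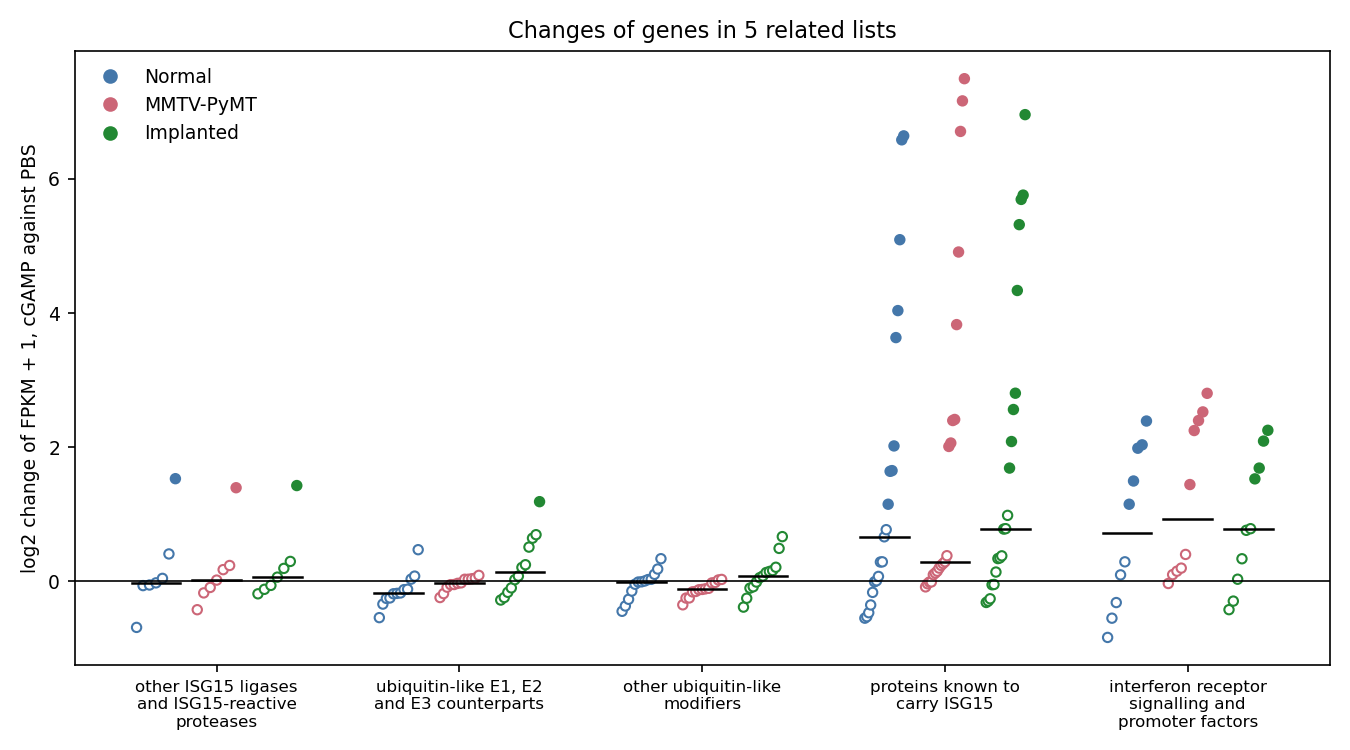
Log2 change of FPKM + 1 after cGAMP for each tested gene of 5 related lists, in 3 tissues. Each point is 1 gene (filled where called) and each bar the median of the list. Carriers of ISG15 and interferon signalling genes hold 4 to 9 filled points per tissue, while the ligase list holds 1, the enzyme counterparts 0 or 1 and the other modifiers 0.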

How the data were processed

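Per the labels and the study's methods, CD31-enriched, CD45-negative CD31-positive cells were sorted, sequenced with a directional paired-end kit, aligned to mm10 with STAR 2.7 and counted with HTSeq. Strand use in counting was not given in the sources used here. The deposited values are FPKM, made by the authors for 16248 genes in 18 libraries. The columns named for control and STING agonist without a tumour name were taken as normal ECs by elimination. The study describes 3 mice per group from separate experiments, and no source used here says which library belongs to which experiment, so p-values measure the spread between these mice, experiments included. Whole reads were recovered for 99.99% of genes from the size of 1 read in each value (98.67% of values within 0.05 read of a whole number at annotated length), giving 9124935 to 12129416 reads per library. Genes at 1 FPKM or more in at least 3 libraries (13983) were tested with limma 3.58.1 in R 4.3.3 on log2(FPKM + 1), a scale that understates changes of low genes, in 1 model of 6 groups with 12 comparisons, moderated with a mean-variance trend, and p-values were adjusted per comparison by Benjamini-Hochberg over all tested genes. A call needed an adjusted p under 0.05 and a log2 change of at least 1. The same model recovered large known changes in simulated data, set in normal cGAMP libraries only and with the same spread beyond counting error for every gene. Recovery was checked for cGAMP against PBS in normal ECs and not for differences of response. Named genes were all members, the 3 most alike genes per member, called genes of each list (at most 6, by size) with the 2 of highest level never called, and the nearest tested gene on each side, of which 2 are not reported here. Members and lists were chosen with earlier results of these data known. Promoters came from RefSeq (GRCm38.p6). Gene names absent from the table (Ubd, Skp2) were not analysed here, and 19 names had been turned into dates. Alternatives were other pseudocounts, filters and scalings, voom on recovered reads, fits of fewer groups, a replicate block and each library left out.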

Additional observations from a re-analysis of the deposited data

Results flagged for a closer look

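The response to cGAMP differed between tissues, by a test of the difference itself (limma interaction, Benjamini-Hochberg over all tested genes), in 6 cases. Uba7 responded more in MMTV-PyMT than in normal ECs by 0.88 on the log2 scale (0.72 to 1.09 over 27 alternatives, past the adjusted p in 22) and more in implanted than in normal ECs by 0.995 (0.62 to 1.10, past in 26). Ube2l6 responded more in MMTV-PyMT than in normal ECs by 1.203 (1.04 to 1.46, past in 23) and more in implanted than in normal ECs by 0.88 (0.33 to 1.01, past in 10). Herc6 responded more in implanted than in normal ECs by 1.17 (0.67 to 1.302, past in 27). Isg15 responded less in implanted than in MMTV-PyMT ECs, with a difference of -1.31 (-1.97 to -1.02, past in 21). The 5 differences from normal ECs share the normal libraries, and no cause was tested.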

How the results depend on the processing

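Counts of members called in cGAMP against PBS (4 in normal ECs, 5 in either tumour), in implanted against MMTV-PyMT ECs under PBS (5), and among cGAMP groups (0, 5 and 5) stayed within 1.5 times under every alternative run. The differences of response and 2 PBS comparisons moved. With a pseudocount of 0.1, 2 members were called in MMTV-PyMT minus normal ECs and 3 in MMTV-PyMT against normal ECs under PBS. With scaling by total reads 0 were called in implanted minus normal ECs. With voom on recovered reads the counts were 2 in MMTV-PyMT minus normal, 2 in implanted minus normal, 3 in MMTV-PyMT against normal under PBS and 4 in implanted against normal under PBS. A fit of only the groups compared gave 0 in implanted minus MMTV-PyMT ECs. With no fold limit the counts were 2 in MMTV-PyMT minus normal, 3 in implanted minus normal, 4 in MMTV-PyMT against normal under PBS and 5 in implanted against normal under PBS. Leaving out 1 library gave 0 to 2 in MMTV-PyMT minus normal, 1 to 3 in implanted minus normal, 0 to 1 in implanted minus MMTV-PyMT, 0 to 2 in MMTV-PyMT against normal under PBS and 2 to 4 in implanted against normal under PBS. The causes of these shifts were not tested.

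Among the values for single members 18 turned direction and 0 of these were called. Uba7 in implanted minus MMTV-PyMT ECs turned to -0.061 with a pseudocount of 0.1, -0.091 with total reads, -0.15 with quantile normalization, -0.088 with voom and -0.060 without MMTV-PyMT cGAMP replicate 1 (-0.060 to 0.28 with 1 library left out). In MMTV-PyMT against normal ECs under cGAMP, Uba7 turned to -0.11 with total reads, -0.093 with quantile normalization and below 0 without normal cGAMP replicate 1 or MMTV-PyMT cGAMP replicate 2 (-0.14 to 0.20 with 1 library left out). Ube2l6 there turned to -0.070 with total reads, -0.072 with quantile normalization and below 0 without normal cGAMP replicate 3 or MMTV-PyMT cGAMP replicate 2 or 3 (-0.079 to 0.33), and Isg15 to 0.0067 without normal cGAMP replicate 2 (-0.18 to 0.0067). Usp18 turned to -0.16 in implanted minus normal ECs with quantile normalization, and without MMTV-PyMT PBS replicate 1 to 0.068 in implanted minus MMTV-PyMT ECs (-0.41 to 0.068) and 0.057 in MMTV-PyMT against normal ECs under PBS (-0.42 to 0.057). Scaling by total reads moved the median of all genes by -0.11 to -0.36 in 9 comparisons, and a filter at a mean of 5 FPKM by 0.11 to 0.15 in 3.

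Replicate numbers were not shown to pair the libraries. The deviations of same-numbered PBS and cGAMP libraries of a tissue had correlations of -0.291 to 0.263. The highest correlation with another number was 0.0341 to 0.303. Only for normal PBS 2 was the same number the closer (0.263 against 0.0923). With 3 libraries a group, these values cannot exclude a pairing. With the replicate number as a block, the members called were 4, 5 and 5 for cGAMP against PBS, 1, 1 and 1 for the differences of response, 1, 2 and 5 under PBS and 0, 5 and 5 under cGAMP, the counts found without the block.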
